A study of Mus musculus with 16 samples.

Results

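The 10 genes described here code for the factors by which mouse cells sense and answer low oxygen. They are the alpha subunits of the hypoxia-inducible factors (HIF), Epas1 and Hif1a, the shared beta subunit Arnt, the ubiquitin ligase subunit Vhl, the prolyl hydroxylases Egln1, Egln2 and Egln3, the asparaginyl hydroxylase Hif1an, and the target genes Vegfa and Bnip3. The rule that finds them is the gene symbol, and all 10 were measured among the 18193 genes of the arrays. They had 24 of the 34945 probe sets (sets of short probes against 1 transcript) with exactly 1 gene symbol, and 8 of the 10 genes had more than 1 probe set.

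RNA levels were measured on 16 single-colour Affymetrix arrays of 7 groups, all labelled wild type on a C57Bl6 background. Pluripotent cells grown on mouse embryonic fibroblast feeders made up 3 groups: induced pluripotent stem cells (iPSC) of aged haematopoietic origin, iPSC of young haematopoietic origin, and embryonic stem cells (ESC) bought from suppliers, with 2 arrays each. The ESC arrays were 1 each of 2 commercial lines, and the labels do not say whether the iPSC arrays were separate clones. Haematopoietic stem cells (HSC), the cells from which all blood cells arise, were sorted from bone marrow: aged and young transplanted HSC came from recipients of aged or young marrow (2 arrays each), and steady-state HSC came from male mice of 21 to 24 months (aged, 3 arrays) and 3 to 4 months (young, 3 arrays). The labels call the HSC and iPSC arrays biological replicates without naming animals, so the p-values given here cover the spread between arrays, which may be technical. They give no recipient age, sex or time after transplantation, and no array batch, so transplantation cannot be told apart from such differences.

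In oxygenated cells the prolyl hydroxylases mark the HIF alpha subunits, VHL binds the marked protein, and the ligase sends it to the proteasome. HIF1AN adds a second mark that blocks the coactivators Ep300 and Crebbp. When oxygen is low the alpha subunit lasts, pairs with ARNT and binds hypoxia response elements at its target genes. In mice, HSC lie in marrow with little oxygen and HIF1α is known for holding them in a quiescent, glycolytic state. Since the control acts mainly on the protein, RNA levels of these genes do not measure HIF activity.

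Several HIF pathway genes are themselves known HIF targets, among them Egln1, Egln3 and Bnip3. Windows from 250 bases before to 50 bases after the start of transcription (RefSeq, build GRCm38.p6) were searched for the HIF core letters ACGTG and GCGTG on both strands. A window was found for 9 of the 10 genes, but not for Epas1. Those of Vhl and Hif1an and the first of Vegfa held 0 matches. In total 8 of the 11 windows held at least 1 match, beside 43.8% of all 32851 mouse windows. They are shown for a HIF subunit and 3 known targets that were called in both comparisons of cell states described below: Egln1 (chr8:124949205-124949504, minus strand), Bnip3 (chr7:138909457-138909756, minus strand), Hif1a (chr12:73907617-73907916, plus strand) and Egln3 (chr12:54203825-54204124, minus strand). Capitals mark the matches, which read CACGT or CACGC where the motif lies on the opposite strand, and CACGTG is a match on both strands at once.
Egln1: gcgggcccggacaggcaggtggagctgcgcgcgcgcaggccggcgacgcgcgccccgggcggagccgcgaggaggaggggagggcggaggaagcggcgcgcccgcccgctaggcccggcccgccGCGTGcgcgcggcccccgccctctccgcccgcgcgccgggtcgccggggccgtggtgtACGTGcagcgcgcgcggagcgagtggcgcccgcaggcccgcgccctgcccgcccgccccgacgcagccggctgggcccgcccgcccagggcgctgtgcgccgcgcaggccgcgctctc
Bnip3: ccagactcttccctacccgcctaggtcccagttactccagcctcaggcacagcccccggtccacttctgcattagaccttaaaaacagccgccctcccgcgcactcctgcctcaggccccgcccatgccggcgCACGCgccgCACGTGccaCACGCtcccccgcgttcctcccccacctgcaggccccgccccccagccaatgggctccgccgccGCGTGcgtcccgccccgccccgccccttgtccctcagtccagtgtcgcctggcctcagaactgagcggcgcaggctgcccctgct
Hif1a: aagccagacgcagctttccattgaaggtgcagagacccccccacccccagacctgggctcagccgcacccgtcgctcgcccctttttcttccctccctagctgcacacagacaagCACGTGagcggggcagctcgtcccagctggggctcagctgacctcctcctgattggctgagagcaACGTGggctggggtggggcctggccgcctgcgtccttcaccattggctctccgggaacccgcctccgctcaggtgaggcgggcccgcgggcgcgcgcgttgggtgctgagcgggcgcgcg
Egln3: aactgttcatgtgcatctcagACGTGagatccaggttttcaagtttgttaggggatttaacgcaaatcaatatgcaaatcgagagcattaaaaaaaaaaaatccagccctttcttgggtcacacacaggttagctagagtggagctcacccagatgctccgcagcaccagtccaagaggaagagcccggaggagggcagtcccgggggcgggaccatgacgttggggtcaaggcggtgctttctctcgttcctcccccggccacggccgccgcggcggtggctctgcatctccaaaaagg
Bnip3 held 5 matches, of which 4 lay between 117 and 99 bases before the start, in a cluster with 2 that overlap. Hif1a held 3, Egln1 held 2 (126 and 68 bases before the start) and Egln3 held 1, far upstream at 229 bases. At least 3 matches were present in 8.93% of all windows. A match is a stretch of letters and not a shown binding site.

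Before the members, 3 facts about the libraries bear on what follows. The 8 HSC markers measured (among them Kit, Procr and Slamf1) averaged between 8.80 and 9.45 (log2 intensity) over the transplanted arrays. Over the steady-state arrays they averaged 10.72 to 11.02. All 8 were called lower in transplanted HSC, as were 50.1% of all genes tested. Their median difference was -1.82, beside -0.46 over all genes. The 8 markers of pluripotent cells, such as Pou5f1 and Nanog, averaged 10.55 to 10.85 on the iPSC and ESC arrays and at most 5.07 on any HSC array. The 2 young transplanted arrays differed from each other: 184 genes were called between aged and young transplanted HSC with both, 1139 without replicate 1 and 1467 without replicate 2. Values below are log2 intensities of the gene's probe set with the highest mean over all 16 arrays, unless another is named, and a gene was called at an adjusted p under 0.05 in a limma fit of 13645 genes.

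Epas1, which codes for HIF2α and is also known as a gene of endothelial cells, was the member with the widest range, spanning 4.47 log2 units between group means. It read 9.81 and 9.88 in aged-origin iPSC, 9.95 and 9.79 in young-origin iPSC, and 9.93 and 9.85 in ESC. In transplanted HSC it read 7.17 and 6.72 in the aged group, against 5.25 and 5.58 in the young group. In steady-state HSC it read 8.19, 8.37 and 8.07 in aged mice, against 6.79, 6.40 and 6.34 in young mice. The pluripotent arrays were all above every HSC array, and in both HSC settings each aged array was above each young array. Of neighbouring groups by mean level, the pluripotent groups overlapped with each other, as did aged transplanted and young steady-state HSC, while the other steps did not overlap.

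Age in steady-state HSC was the first comparison. Epas1 was 1.70 log2 units (SE 0.20) or 3.26-fold higher in aged than in young steady-state HSC, at an adjusted p of 0.00247. This is the value of probe set 1435436_at: the other, 1449888_at, differed by -0.01 (SE 0.30, adjusted p = 1.0), and the mean of both gave 0.84 (adjusted p = 0.077), which is not called. Epas1 was the only 1 of the 10 members called, and 0 were lower, where 1.18% of all genes tested were called (0.96% higher and 0.22% lower). In these bulk samples a change in the share of cells that carry a transcript and a change in RNA per cell cannot be told apart.

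Hif1a, the other alpha subunit, read 10.39, 10.41 and 10.53 in aged against 10.57, 10.42 and 10.24 in young steady-state HSC, and the groups overlapped. Its difference of 0.03 had a 95% interval from -0.36 to 0.42, so a 1.70 log2 difference like that of Epas1 lay outside it. This holds for probe set 1427418_a_at. On 1448183_a_at Hif1a differed by -1.19 (SE 0.28, adjusted p = 0.129), without overlap and not called. 1416035_at and 1431981_at differed by -0.27 and 0.06, and the mean of all Hif1a probe sets by -0.34, not called. Egln1 and Vegfa had non-overlapping groups without a call. For Egln1 the levels were 9.20, 9.31 and 9.34 in aged HSC and 9.68, 9.52 and 9.38 in young HSC. Vegfa, the angiogenic growth factor, read 6.75, 6.36 and 5.96 in aged HSC and 7.20, 6.85 and 6.85 in young HSC, a difference of -0.61 (SE 0.29, adjusted p = 0.85). With Epas1 these were 3 members without overlap, beside 18.2% of all genes, so non-overlap of Egln1 and Vegfa is no result about them. The differences of Arnt, Vhl, Egln2, Egln3, Hif1an and Bnip3 lay between -0.16 and 0.03.

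After transplantation Epas1 was again higher in the aged group. In transplanted HSC it was 1.53 log2 units (SE 0.24) or 2.89-fold higher in the aged than in the young group (adjusted p = 0.0224), and again 1 member was higher and 0 lower, beside 1.35% of genes called (0.55% higher and 0.799% lower). The difference between the transplanted and the steady-state age effect was -0.17 (SE 0.32, 95% interval -0.87 to 0.53, adjusted p = 0.922). The transplanted call rests on the spread shared with the steady-state arrays. It was lost without aged steady-state replicate 1 (adjusted p = 0.0533) or without young steady-state replicate 2 (0.0547).

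Arnt, Hif1an and Vegfa also had non-overlapping aged and young transplanted groups, which with Epas1 made 4 members, beside 31.7% of all genes. Hif1an, the enzyme that blocks coactivator binding, read 8.05 and 8.30 in aged against 8.76 and 9.14 in young transplanted HSC, a difference of -0.78 (SE 0.22, adjusted p = 0.134). Its probe set 1452845_at read 3.78 and 4.00 in aged against 6.35 and 5.08 in young transplanted HSC, and in the fit of all 26209 probe sets, of which 0.954% were called, it was lower, at -1.83 (SE 0.34, adjusted p = 0.0429). The aged readings of that probe set lay below the 25th percentile of gene levels in that group (4.51), so its size there is uncertain. Arnt differed by 0.73 (adjusted p = 0.281) and Vegfa by 0.65 (adjusted p = 0.427), neither of them called. Hif1an was called with the mean of its probe sets (-0.86, adjusted p = 0.0384). Calls also came when a young array was left out: without young transplanted replicate 1 Hif1an was called at -0.97 (adjusted p = 0.036; 8.35% of all genes called), and without young transplanted replicate 2 Arnt was called at 1.15 (0.0277) and Egln1 at 0.90 (0.034), with 10.8% of all genes called.

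On 1420909_at Vegfa had the lower level in aged HSC at steady state and the higher one after transplantation. The difference between those age effects was 1.25 (SE 0.45, adjusted p = 0.396), not called. On 1451959_a_at the means were 4.71 in aged and 4.59 in young steady-state HSC, and 5.89 in aged and 5.85 in young transplanted HSC. With the mean of both probe sets the difference of age effects was 0.59 (adjusted p = 0.633). In that comparison 0 of 10 members were called, where 0.125% of genes were. By unadjusted p under 0.05 there were 2 members (Hif1an and Vegfa) and 1328 genes. Leaving out young transplanted replicate 1 gave 1 call, Vegfa at 1.77 (adjusted p = 0.0453), while 2.51% of all genes were then called. Leaving out young transplanted replicate 2 gave 1 call, Egln1 at 1.15 (adjusted p = 0.0431), while 5.30% of all genes were then called.

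**Figure D1:**
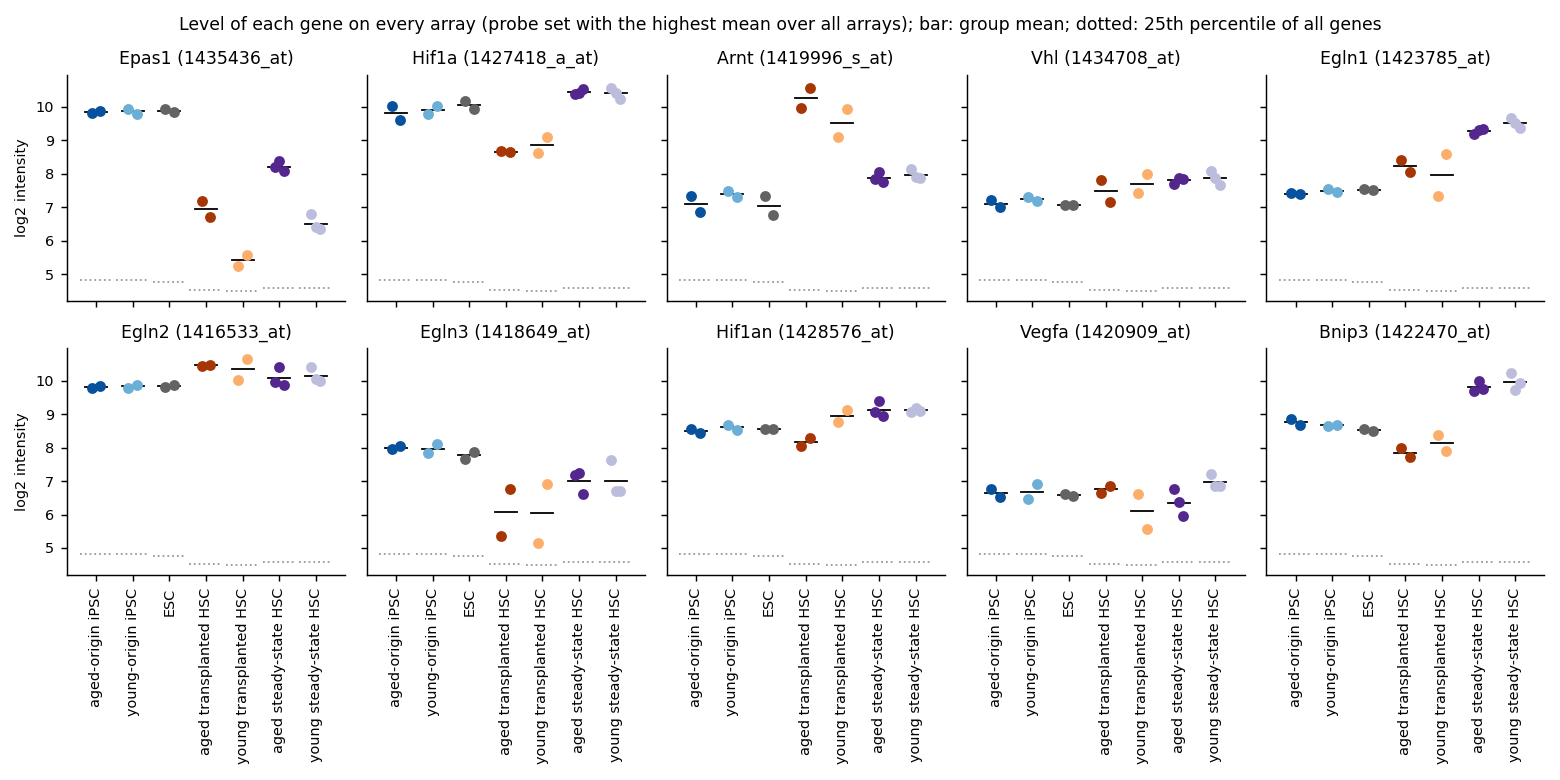
Log2 intensity (vertical axis) of each of the 10 genes on all 16 arrays, 1 point per array, by group; black bars are group means and dotted lines the 25th percentile of all gene levels in the group. On the probe sets shown, Epas1 lies near 9.9 in all pluripotent cells and is higher in aged than in young HSC in both settings. Bnip3 and the Hif1a probe set shown lie lower in transplanted than in steady-state HSC, but the mean of the 4 Hif1a probe sets differed by 0.0.

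Reprogramming was the next comparison. Between iPSC of aged and young origin Epas1 differed by -0.02 (SE 0.13, 95% interval -0.31 to 0.26). The steady-state HSC difference lies outside that interval, and the test of the 2 age effects against each other gave -1.73 (SE 0.27, adjusted p = 0.00776). It was the 1 member of 10 called in that test, where 0.476% of genes were called. This call was lost without aged-origin iPSC replicate 1 (adjusted p = 0.0652) or young-origin iPSC replicate 1 (0.0729), with differences of -1.69 and -1.64, and with the mean of both Epas1 probe sets (-0.86, adjusted p = 0.37).

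None of the 10 members was called between iPSC of aged and young origin (0 of 10 in limma, 0 at an unadjusted p under 0.05), where 0.00733% of genes were called. The member differences ran from -0.29 for Arnt to 0.12 for Bnip3, and 2 members had groups without overlap, beside 33.4% of genes. Against ESC, iPSC likewise had 0 of 10 members called and 0 at an unadjusted p under 0.05, where 0.11% of genes were called. Differences from ESC lay between -0.19 (Hif1a) and 0.22 (Egln3), with 1 member without overlap beside 23.8% of genes, and for Epas1 the difference of -0.03 had a 95% interval from -0.28 to 0.21. At 2 arrays a group, these intervals leave room for small differences.

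**Figure D2:**
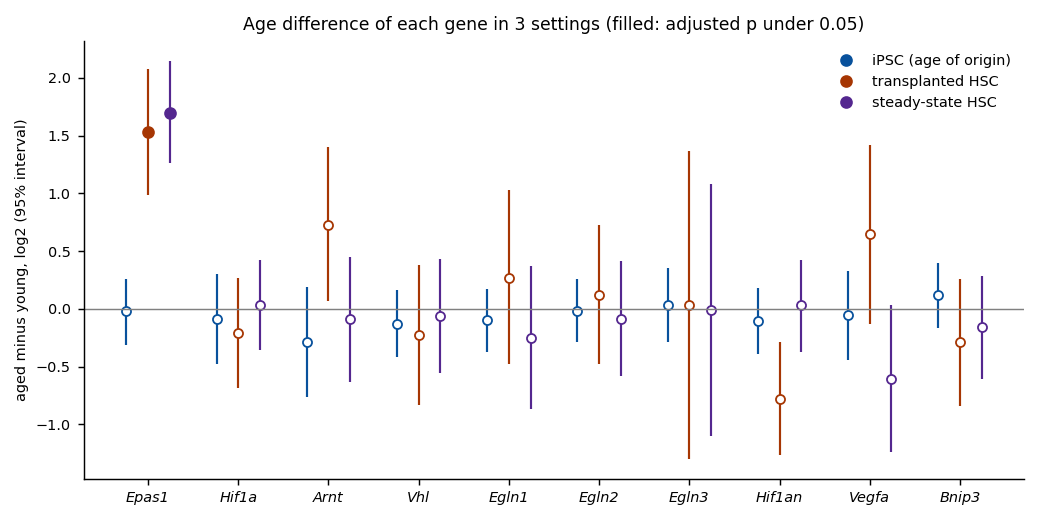
Difference between aged and young groups (vertical axis, log2 units, with 95% intervals) for each gene in iPSC by age of origin, in transplanted HSC and in steady-state HSC; filled points were called at an adjusted p under 0.05. Epas1 has filled points at 1.53 in transplanted and 1.70 in steady-state HSC and an open one at -0.02 in iPSC, and the 9 other genes have open points throughout.

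Between cell states most genes of the arrays differed, and the members are described against that background. In iPSC against steady-state HSC 2 members were higher and 6 lower, and 76.4% of all genes were called (41.8% higher and 34.7% lower). The median member difference was -0.57, beside 0.17 over all genes. In transplanted against steady-state HSC 1 member was higher and 6 lower, and 69.9% of genes were called (19.8% higher and 50.1% lower). The median member difference there was -0.76, beside -0.46 over all genes. Groups did not overlap for 8 members in iPSC, beside 73.3% of genes, and for 4 in transplanted HSC, beside 54.8%. Neither count stands apart from its background, and both comparisons use the same steady-state arrays. Single probe sets were tested in fits of all probe sets, of which 71.3% were called in iPSC and 69.2% in transplanted HSC.

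On the probe sets with the highest mean of their gene, the alpha subunits parted in iPSC. Epas1 was 2.50 log2 units (SE 0.14) or 5.65-fold higher in iPSC than in steady-state HSC (adjusted p = 5.3e-10), and its second probe set, 1449888_at, was higher by 2.31 (SE 0.21, adjusted p = 1.88e-07). That second probe set did not show the age difference of the first: it read 4.69, 5.26 and 5.07 in aged against 5.42, 4.75 and 4.90 in young steady-state HSC, all near the 25th percentile of gene levels (4.57 in both groups). In transplanted HSC it read 4.41 and 5.54 in the aged group and 4.23 and 4.20 in the young group, a difference of 0.76 (SE 0.37, adjusted p = 0.382). With the mean of both probe sets the transplanted age difference was 1.14 (adjusted p = 0.0464). In transplanted HSC Epas1 was lower than in steady-state HSC, at -1.18 (SE 0.16, 2.27-fold lower, adjusted p = 7.2e-05), while 1449888_at differed by -0.42 (adjusted p = 0.141).

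Hif1a read 10.04 and 9.60 in aged-origin iPSC and 9.79 and 10.02 in young-origin iPSC, all below the steady-state HSC arrays, and was lower in iPSC with a log2 difference of -0.57 (SE 0.13, adjusted p = 0.00157). In transplanted HSC it read 8.67 and 8.64 in the aged group and 8.61 and 9.11 in the young group. Those 4 arrays lay at least 1 log2 unit below every steady-state array, and the difference was -1.67 (SE 0.14, 3.18-fold lower, adjusted p = 2.56e-06).

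The 4 probe sets of Hif1a did not move together after transplantation. 1416035_at was lower with a log2 difference of -2.14 (SE 0.23), while 1448183_a_at was higher by 1.86 (SE 0.22) and 1431981_at by 1.94 (SE 0.21), all 3 called. On 1448183_a_at the arrays read 8.80 and 8.71 in aged and 7.51 and 8.53 in young transplanted HSC, against 6.06, 5.62 and 6.12 in aged and 7.45, 6.92 and 7.0 in young steady-state HSC. Within steady-state HSC this probe set also had non-overlapping ages, at -1.19 (SE 0.28, adjusted p = 0.129), which was not called. The mean of the 4 probe sets put the transplanted difference of Hif1a at 0.0 (adjusted p = 0.984), so no direction for Hif1a after transplantation can be given. With that mean its iPSC difference was -0.14 and not called (adjusted p = 0.378), so the lower level in iPSC is that of 1427418_a_at.

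Probe sets called in opposite directions were common in that comparison: Hif1a, Egln1 and Egln3 were 3 of the 8 members with 2 or more probe sets tested, and among all genes with 2 or more it was 38.7%. In iPSC against steady-state HSC it was also 3 of 8 members (Arnt, Egln3 and Hif1an), beside 18.7% of genes. In the age comparisons the share was 0% of genes. Directions of these genes in the comparisons named are therefore those of the probe sets given, and which transcripts each probe set reads was not tested.

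**Figure D3:**
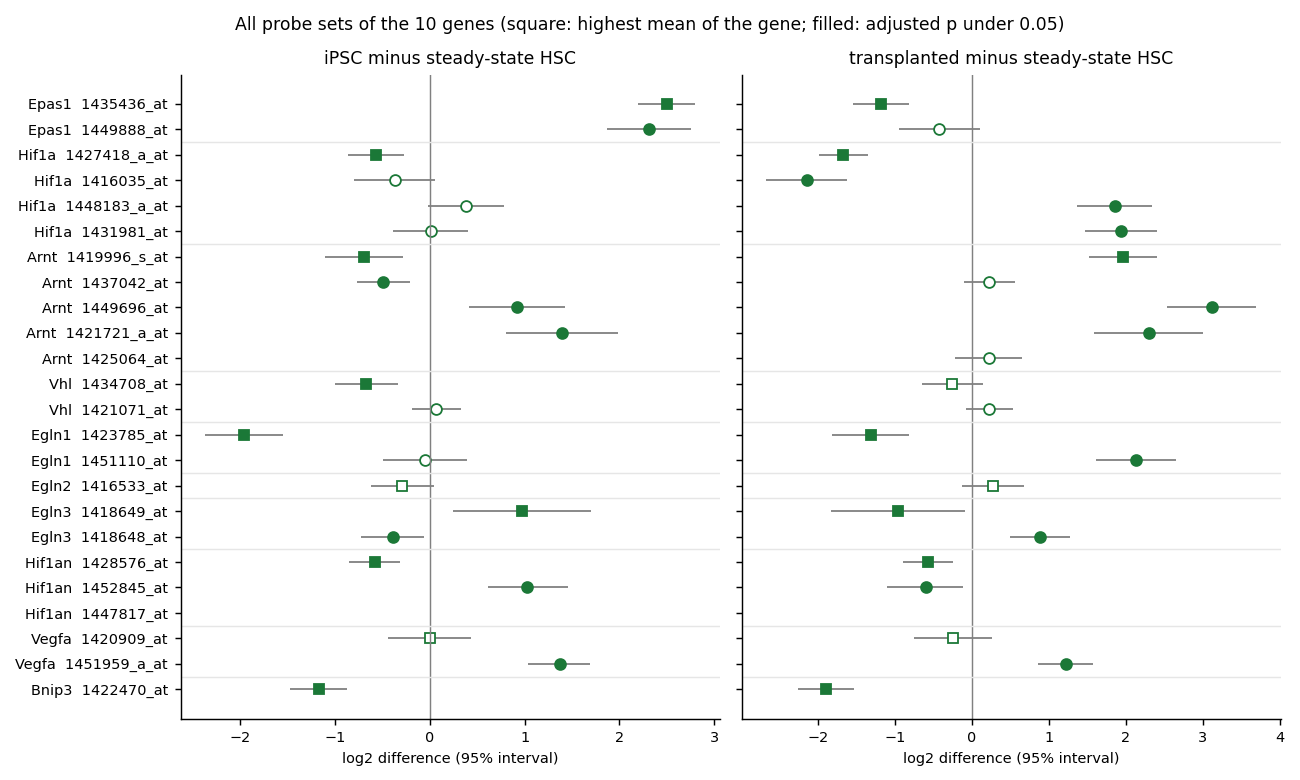
Log2 difference with 95% interval (horizontal axis) of all 24 probe sets of the 10 genes, in iPSC against steady-state HSC (left) and transplanted against steady-state HSC (right); squares are the probe sets with the highest mean of their gene, and filled symbols were called. Both Epas1 probe sets are filled at 2.50 and 2.31 on the left, and the Hif1a, Egln1 and Egln3 probe sets fall on both sides of 0 on the right; probe sets with no symbol were too dim to be tested.

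Arnt, the beta subunit that every HIF alpha subunit needs as its partner, was the member called higher after transplantation, on its probe set 1419996_s_at. It read 9.96 and 10.56 in aged and 9.10 and 9.95 in young transplanted HSC, against 7.84, 8.05 and 7.74 in aged and 8.13, 7.91 and 7.88 in young steady-state HSC, with no overlap. The difference was 1.97 (SE 0.19, 3.91-fold higher, adjusted p = 7.82e-06). Probe sets 1449696_at (3.12, SE 0.26) and 1421721_a_at (2.30, SE 0.32) were higher as well. A further probe set, 1437042_at, differed by 0.23 (SE 0.15, adjusted p = 0.19). The dim 1425064_at averaged 4.86 in aged and 4.83 in young transplanted HSC, against 4.65 and 4.61 in steady-state HSC. Over all 16 arrays 1419996_s_at averaged 8.13 and 1437042_at 8.12, and outside the transplanted groups 1437042_at had the higher mean in every group. The high transplanted readings of 1419996_s_at thus decided which probe set stood for Arnt. In iPSC Arnt was lower than in steady-state HSC with a log2 difference of -0.69 (SE 0.19, adjusted p = 0.00434), a call lost with quantile normalization (-0.38, adjusted p = 0.0712). In the same comparison 1449696_at (0.92, adjusted p = 0.00304) and 1421721_a_at (1.39, adjusted p = 0.000408) were higher and the mean of its probe sets was 0.15, so no direction for Arnt in iPSC can be given.

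Vhl, which recognises hydroxylated HIF alpha subunits, varied little, by 0.78 between its highest and lowest group mean. It was lower in iPSC than in steady-state HSC with a log2 difference of -0.67 (SE 0.15, adjusted p = 0.00111), while its other probe set, 1421071_at, differed by 0.07 (adjusted p = 0.615) and the mean of both by -0.30 (0.0261). Its group means ran from 7.08 in ESC to 7.86 in young steady-state HSC. In transplanted HSC its difference of -0.25 was not called (adjusted p = 0.232), although centring the arrays gave a called -0.45 (adjusted p = 0.0398). On 1421071_at aged and young transplanted HSC did not overlap, at 5.12 and 4.70 in the aged against 5.70 and 5.85 in the young group, but the difference of -0.87 (SE 0.22, adjusted p = 0.0987) was not called.

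Among the prolyl hydroxylases, Egln1 is known as the main enzyme that limits HIF1α. It read 7.41 and 7.39 in aged-origin iPSC and 7.54 and 7.45 in young-origin iPSC, against 9.20 to 9.68 over the 6 steady-state HSC arrays. It was lower in iPSC with a log2 difference of -1.96 (SE 0.19, 3.89-fold lower, adjusted p = 2.85e-07). Its other probe set, 1451110_at, differed there by -0.05 (adjusted p = 0.827), and the mean of both gave -1.01 (adjusted p = 0.000209). In transplanted HSC it read 8.40 and 8.06 in the aged and 7.33 and 8.58 in the young group, and was lower with a log2 difference of -1.31 (SE 0.22, adjusted p = 0.000357). On 1451110_at transplanted HSC went the other way (2.14, SE 0.24, adjusted p = 1.83e-05), and the mean of both gave 0.41, so no direction for Egln1 after transplantation can be given.

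Egln2, a prolyl hydroxylase with a single probe set, stayed between 9.78 and 10.66 on all 16 arrays. It was called in neither comparison of cell states, at -0.29 (SE 0.15) in iPSC and 0.28 (SE 0.18) in transplanted HSC against steady-state HSC. Quantile normalization turned the transplanted value into a call (0.46, adjusted p = 0.0307).

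Egln3, the hydroxylase best known for rising under hypoxia, read 7.96 and 8.04 in aged-origin and 7.84 and 8.10 in young-origin iPSC, against 7.18, 7.24 and 6.60 in aged and 7.63, 6.71 and 6.71 in young steady-state HSC. It was higher in iPSC by 0.97 (SE 0.33, adjusted p = 0.0167), while 1418648_at was lower with a log2 difference of -0.39 (SE 0.15, adjusted p = 0.0355). The call was lost with the mean of both probe sets (0.29, adjusted p = 0.223) and without young-origin iPSC replicate 2 (0.91, adjusted p = 0.057). In transplanted HSC it read 5.37 and 6.77 in the aged and 5.15 and 6.92 in the young group, so the arrays of each group lay more than 1 log2 unit apart. Its difference of -0.96 (SE 0.39, adjusted p = 0.0469) was close to the threshold. The call was lost without aged steady-state replicate 1 or 2 or any young steady-state array (adjusted p up to 0.102). Without transplanted replicate 1 the difference was -0.61 (aged) or -0.52 (young). On 1418648_at, called higher, means were 6.89 in aged and 7.56 in young transplanted HSC, against 6.30 and 6.37 in steady-state HSC. The mean of both probe sets gave -0.04 (adjusted p = 0.904), so no direction for Egln3 after transplantation can be given.

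Hif1an was lower in iPSC with a log2 difference of -0.58 (SE 0.12, adjusted p = 0.000638), but its probe set 1452845_at was higher by 1.03 (SE 0.20, adjusted p = 0.00032). In transplanted HSC the 2 probe sets were both lower, by log2 differences of -0.57 (SE 0.14) and -0.60 (SE 0.22, adjusted p = 0.0315). The remaining one, 1447817_at, was too dim to be tested.

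The target genes also differed from each other. Bnip3, a mitochondrial protein that marks mitochondria for removal, read 8.86 and 8.69 in aged-origin iPSC and 8.64 and 8.69 in young-origin iPSC. It read 7.98 and 7.72 in aged and 8.39 and 7.90 in young transplanted HSC. In steady-state HSC it read 9.69, 9.99 and 9.74 in aged and 10.24, 9.73 and 9.94 in young mice, above every other array of the series. Bnip3 was lower in iPSC with a log2 difference of -1.17 (SE 0.14, 2.25-fold lower, adjusted p = 2.17e-06) and in transplanted HSC by -1.89 (SE 0.16, 3.72-fold lower, adjusted p = 2.66e-06). Both calls were kept under every alternative run, with differences of -1.23 to -0.98 in iPSC and -2.10 to -1.75 in transplanted HSC. Bnip3 had only 1 probe set, so averaging the probe sets of a gene could not change these calls. Whether another probe set would give the same direction could not be seen.

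Vegfa differed by 0.0 (SE 0.20) in iPSC and by -0.24 (SE 0.23, adjusted p = 0.367) in transplanted HSC. Its second probe set, 1451959_a_at, was higher in both, by 1.37 (SE 0.15) and 1.22 (SE 0.16). That probe set read between 5.66 and 6.22 in iPSC and 5.75 and 5.94 in transplanted HSC, against 4.33 to 5.01 in steady-state HSC, so its groups did not overlap while those of 1420909_at did.

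The other genes of the pathway were followed in 3 lists: HIF relatives and dimer partners (12 genes measured), the VHL ligase with HIF turnover and coactivators (15) and further HIF target genes (33). By limma, 0 of these genes were called in any age comparison of HSC or iPSC, and 0 between iPSC and ESC. At an unadjusted p under 0.05 there were 7 of 51 tested for age at steady state, 8 of 51 after transplantation, 2 of 55 in iPSC by origin and 12 of 55 between iPSC and ESC. Over all genes tested the shares at that unadjusted p were 6.31%, 15.2%, 4.98% and 12.7% in the same order, so the listed genes are read against these. Bhlhe40, a transcriptional repressor induced by hypoxia, had the smallest p in steady-state HSC, with a mean of 9.04 in aged against 7.66 in young HSC (1.38, SE 0.32, adjusted p = 0.0952). Cited2, which competes with HIF for coactivators, differed by 0.64 (SE 0.17, adjusted p = 0.18), and the alpha-subunit relative Hif3a by -0.71 (SE 0.31, adjusted p = 0.761). With only the arrays compared in the fit, 5 of the listed genes were called for age in steady-state HSC, where that fit called 3.04% of all genes.

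In iPSC against steady-state HSC 18 HIF targets were higher and 12 lower of 32 tested, with a median difference of 0.52 (0.17 over all genes). Of all genes tested 76.4% were called there (41.8% higher and 34.7% lower), and the counts of the 3 lists are read against these shares. Slc2a1, the glucose transporter, was higher by 2.48 (SE 0.15), and Angptl4 (2.02), P4ha2 (2.13), a collagen hydroxylase, and the transferrin receptor Tfrc (1.71) were higher too. Ndrg1 was lower with a log2 difference of -4.31 (SE 0.23), and Cxcr4 (-2.79), the receptor that holds HSC in marrow, Pfkfb3 (-2.81), a regulator of glycolysis, and the glycogen enzyme Gbe1 (-2.35) were lower. Of the ligase and coactivator list 3 were higher and 6 lower of 13: the elongins Elob (3.44) and Eloc (1.03) and the scaffold Cul2 (1.55), which join VHL in the ligase, were the 3 higher, while Cited2 (-3.47), Siah2 (-3.96), Wsb1 (-2.06) and Os9 (-1.40) were lower. Of 8 HIF relatives 3 were higher, led by the beta-subunit relative Arnt2 (1.11), and 5 lower, led by Ahr (-1.65), the dioxin receptor that also pairs with ARNT.

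Feeder cells could add RNA to the cultured samples. The 8 fibroblast markers averaged 5.21 to 5.82 over the iPSC and ESC arrays, against 4.54 to 5.02 over the HSC arrays. Of 5 tested, 3 were higher and 0 lower in iPSC than in steady-state HSC, beside 41.8% and 34.7% of all genes. In each pluripotent group 2 or 3 of the 8 markers lay below the 25th percentile. Their part in the iPSC differences was not tested.

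In transplanted against steady-state HSC 4 HIF targets were higher and 15 lower of 31 tested, with a median of -0.38 (-0.46 over all genes). Of all genes tested 69.9% were called there (19.8% higher and 50.1% lower), which is the background for the 3 lists. Cxcr4 was higher by 4.43 (SE 0.18, 21.5-fold), at a mean of 12.14 in transplanted against 7.72 in steady-state HSC, and Ddit4 (1.49), a stress gene that restrains growth signalling, Ankrd37 (0.88) and Slc2a1 (0.58) were the others higher. The glycolytic gene Pgk1 (-2.40), Ero1a (-2.49), the histone demethylase gene Kdm3a (-2.37) and Pdgfb (-1.46) were among those lower. The ligase list had 3 higher, Elob (1.89), Os9 (1.02) and Eloc (0.55), and 6 lower, among them Ep300 (-2.15) and Siah2 (-2.93), of 13. HIF relatives had 1 higher, Npas2 (0.34, adjusted p = 0.0488), and 5 lower, led by Ahr (-3.28), of 7. Cxcr4 was thus higher in transplanted HSC and lower in iPSC, each against the same steady-state arrays.

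**Figure D4:**
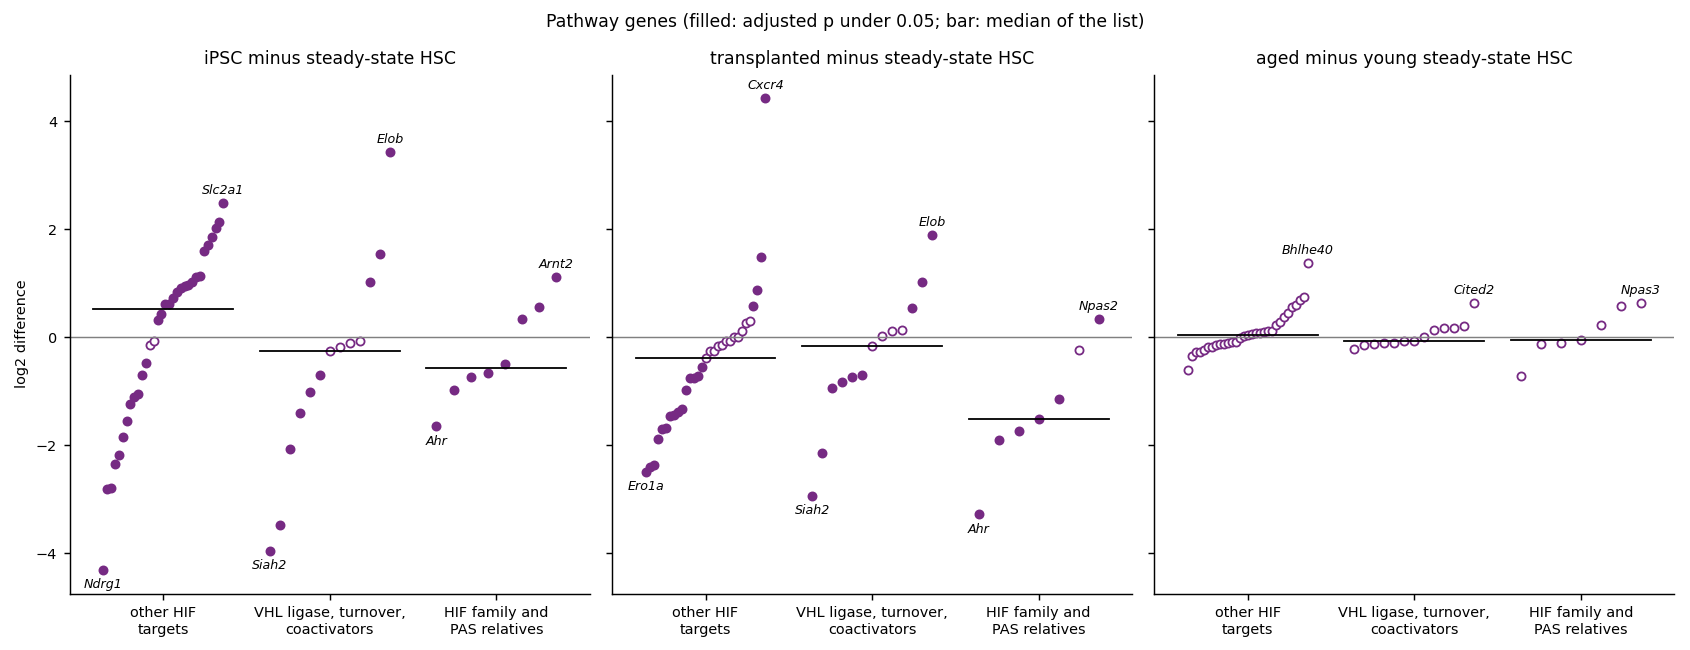
Log2 difference (vertical axis) of each tested gene of the 3 pathway lists in 3 comparisons, sorted within each list; filled points were called, and black bars are list medians. Slc2a1 and Elob lead the lists in iPSC and Cxcr4 leads after transplantation, while all points are open for aged against young steady-state HSC, where Bhlhe40 is highest at 1.38.

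In steady-state HSC 2 of 8 tested endothelial markers were higher with age, as Epas1 was. Of all genes tested 0.96% were higher and 0.22% lower in that comparison. The 10 endothelial markers averaged 6.04 to 6.34 over the aged arrays, against 5.68 to 5.81 over the young arrays. Cldn5 (2.61, SE 0.25, adjusted p = 0.000699) and Kdr (1.45, SE 0.21, adjusted p = 0.00722) were the 2 higher and 0 were lower, with a list median of 0.15, while Pecam1 (0.07), Emcn (-0.25), Plvap (0.16), Stab2 (-0.26), Sox18 (0.65) and Tie1 (0.15) were not called. The defining markers Cdh5 and Sox17 were too dim to be tested. In transplanted HSC, where Epas1 was also higher with age, 0 of 8 endothelial markers were called. There 7 of the 8 were above 0, with a list median of 0.31, beside -0.02 over all genes. Of all genes 1.35% were called there (0.55% higher and 0.799% lower). The endothelial averages were 5.74 to 5.84 in the aged against 5.53 to 5.64 in the young group. Of 8 megakaryocyte and platelet markers 2, Vwf (2.10) and Itgb3 (1.55), were higher with age in steady-state HSC, with 5 of 8 above 0. Of 6 myeloid markers 1, Prtn3 (0.85), was higher there, with 3 of 6 above 0. After transplantation 1 of 5 erythroid markers, Slc4a1 (2.26), was higher in the aged group, with 2 of 5 above 0. Of 6 myeloid markers 1, Csf1r (-3.61), was lower there, with 3 of 6 above 0. The part of endothelial, megakaryocytic, erythroid or myeloid cells in the Epas1 result was not tested.

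The genes whose pattern was most like that of Epas1 over the 10 HSC arrays were Bcl3 (Pearson r = 0.968), a nuclear partner of NF-κB, the BMP receptor Bmpr1a (0.966), the magnesium channel Trpm6 (0.958), Clca3a1 (0.956) and Bex2 (0.953). The points share their groups, so these values mostly restate the common age and transplantation differences and carry no test. Bmpr1a had group means of 6.89 in aged and 5.55 in young transplanted HSC, and 8.71 in aged and 6.62 in young steady-state HSC. Over the 7 group means Bcl3 (0.994), the amino acid transporter Slc7a7 (0.992) and the ligand Bmp4 (0.991) were nearest to Epas1. Over the same 7 means Hif1a was nearest to Nae1 (0.999) and Zfp354c (0.999), Bnip3 to Grk5 (0.999) and Alg8 (0.998), and Vegfa, whose means varied little, to Marchf4 (0.927).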

How the data were processed

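RNA of 7 cell groups was hybridised to 16 single-colour Affymetrix arrays. Per the labels, the RNA was isolated with QIAGEN microRNeasy columns and made into biotinylated cRNA in the way Affymetrix prescribes. The authors deposited 1 intensity table of 45101 probe sets, on a linear scale from 4.53 to 31493 with array medians of 43.4 to 51.8. Their summarisation and normalisation are not given in the sources used here, and the table has no detection calls. For the tests, log2 of each intensity was taken with no pseudocount. Gene names came from a platform annotation: 34945 probe sets had 1 symbol, 932 had several, 9160 were unnamed, and 64 control probe sets were left out. A gene was represented by its brightest probe set on average, and genes under the 25th percentile in a fit were left out, which kept all 10 members.

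Linear models (limma 3.58.1 under R 4.3.3, lmFit followed by eBayes) were run on the 10 HSC arrays, on the 6 iPSC and ESC arrays, or on all 16 arrays for iPSC against HSC, with 6, 3 and 9 residual degrees of freedom. P-values were adjusted by Benjamini and Hochberg over the 13645 genes, or the 26209 probe sets, of a fit. The fits were tested on simulated data. The number of arrays limits the precision. The members, gene lists and marker lists were chosen with earlier results of these data known. The rule for names was all members, up to 4 called genes per list, comparison and direction (2 with the smallest p where 0 were called), and the genes of highest correlation with a member. Alternatives were quantile normalization, centring, other filters, averaging all probe sets of a gene, another prior, a pseudocount of 16, a replicate block, fewer arrays and each array left out. The number of a replicate did not pair samples, and the check of this is given with the alternatives.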

Additional observations from a re-analysis of the deposited data

Results flagged for a closer look

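Epas1 had a different age effect in iPSC than in steady-state HSC: the aged minus young difference was -0.02 between iPSC groups and 1.70 between steady-state HSC groups, and the test of the difference between them gave -1.73 (SE 0.27, limma adjusted p = 0.00776). Every aged steady-state array read above every young one, while the iPSC groups overlapped. With the mean of both Epas1 probe sets the value was -0.86 (adjusted p = 0.37).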

How the results depend on the processing

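Of 1540 member differences recomputed under alternatives, 403 were past the threshold in either fit; of these, 25 lost and 12 gained a call and 5 changed sign. All 5 came from averaging the probe sets of a gene: 0.41 for Egln1 and 0.49 for Vegfa in transplanted, and 0.15 for Arnt, 0.22 for Hif1an and 0.68 for Vegfa in iPSC, each against steady-state HSC. With that mean, 0 members (1 in the reported fit) were called for age in steady-state HSC, 2 (1) for age in transplanted HSC and 0 (1) for the age effect of iPSC against that of HSC. Members called for age in transplanted HSC fell to 0 with only the arrays compared, a fit of 4 arrays in which limma called 0 of 13645 genes and which therefore says nothing about Epas1, with the replicate block (Epas1 adjusted p = 0.0742) and with the crossed replicate block (0.0514), the last chosen after seeing the data. Pathway genes called for age in steady-state HSC were 1 without a filter and 5 with only the arrays compared (0 in the reported fit), and 1 between iPSC and ESC with the intensity trend and robust prior (0). Leaving out 1 array gave 0 to 3 members called for age in transplanted HSC. It gave 0 to 8 pathway genes there (8 without young transplanted replicate 2). For the difference of HSC age effects it gave 0 to 1 of each. For the age effect of iPSC against that of steady-state HSC it gave 0 to 1 members. Same-numbered arrays of aged and young groups did not deviate together (correlations 0.15, -0.20 and 0.19 in steady-state, -0.16 in transplanted HSC and -0.05 in iPSC). The replicate block called 121 genes for age in steady-state HSC (161 without it) and 27 in transplanted HSC (184); ESC have no numbers, so no block was fitted for iPSC against ESC. The cause of these changes was not tested. Scaling moved the median of all genes between transplanted and steady-state HSC, which was -0.66 after centring and -0.45 after quantile normalization (-0.46 as deposited), and between iPSC and steady-state HSC (0.12 and 0.24, against 0.17). With 2 or 3 arrays a group and no detection calls, small differences and dim probe sets cannot be resolved.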
